A study of Mus musculus with 6 samples.

Results

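Genes of neuroendocrine cells and of serotonin synthesis, 10 in all, were followed in the epithelium of the mouse common bile duct: Tph1, Chga, Chgb, Scg2, Scg5, Neurod1, Sst, Cck, Syp and Cpe. They were picked by name, as the non-control probes on the array that carry one of these symbols, which gave 12 probes for 10 genes out of 56605 probes for 37008 genes. Tph1 had 3 probes and the other 9 genes had 1 each. Of the 10 genes, 4 (Tph1, Scg5, Syp and Cpe) were well above background on every array of at least 1 group and so entered the test across 20737 genes. The study held 6 Agilent 1-colour arrays of C57BL/6 mice named iFGF10, 3 from animals with 0.02% doxycycline in their drinking water (DOX+) and 3 from animals on plain water (DOX-), both for 5 days. Doxycycline is the antibiotic used to switch on tetracycline-controlled genes, and FGF10 is a secreted growth factor that acts on epithelia. The series design gives 3 mice per group, but the controls are described by WT names and also as iFGF10 animals without treatment, so it was not clear if they carried the construct or if mice were pooled. No label names the promoter that drives the construct, and mice without the construct that drank doxycycline were not analysed here, so the drug and the induced gene cannot be told apart.

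Neuroendocrine cells are scattered epithelial cells that store peptide hormones or serotonin in dense-core granules and release them on stimulation. Granins such as chromogranin A help to form these granules, prohormone convertases and carboxypeptidase E cut the stored precursors, and transcription factors such as Neurod1 set up the endocrine programme in gut and pancreas. Serotonin is made outside the brain from tryptophan by tryptophan hydroxylase 1 (Tph1) followed by aromatic amino acid decarboxylase (Ddc). Enterochromaffin cells are the best known source, and mouse mast cells also express Tph1 and store serotonin.

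The promoters of several members share a short sequence, the cAMP response element TGACGTCA, which is the textbook control element of the somatostatin gene. RefSeq windows (GRCm38.p6) from 250 bases before to 50 bases after the start were found for 9 of the 10 genes, with 2 windows for Tph1 and none for Cpe. Both strands were searched. The 8-base element was present in 3 of the 9 genes, Chgb, Scg2 and Sst, against 1.79% of 32841 mouse promoter windows. Its first part, TGACG, which also lies within the 8-base element, was present on either strand in 7 of the 9 genes against 20.8% of windows. Neurod1 and Syp held neither in these windows. The 100 bases before the start are printed for Tph1 and for the member granin and hormone genes, with TGACG on either strand (CGTCA when it lies on the other strand) or the full element in capitals. A match of letters is a description and no evidence of binding.
Chgb, chr2:132781542-132781641, plus strand: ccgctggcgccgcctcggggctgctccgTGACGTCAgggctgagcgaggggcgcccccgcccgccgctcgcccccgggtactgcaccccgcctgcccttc
Scg2, chr1:79440027-79440126, minus strand: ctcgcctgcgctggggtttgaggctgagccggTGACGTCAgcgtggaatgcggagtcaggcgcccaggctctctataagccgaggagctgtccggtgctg
Sst, chr16:23890845-23890944, minus strand: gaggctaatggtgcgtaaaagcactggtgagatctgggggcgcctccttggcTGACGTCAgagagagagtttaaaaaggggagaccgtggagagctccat
Chga, chr12:102554841-102554940, plus strand: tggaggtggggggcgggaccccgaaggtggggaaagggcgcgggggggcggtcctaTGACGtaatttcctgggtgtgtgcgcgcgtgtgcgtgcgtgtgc
Scg5, chr2:113829092-113829191, minus strand: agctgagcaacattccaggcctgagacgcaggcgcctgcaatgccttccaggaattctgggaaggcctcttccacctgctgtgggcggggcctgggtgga
Cck, chr9:121495695-121495794, minus strand: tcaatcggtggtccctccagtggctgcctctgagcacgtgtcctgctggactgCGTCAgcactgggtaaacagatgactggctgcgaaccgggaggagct
Tph1, first window, chr7:46672538-46672637, minus strand: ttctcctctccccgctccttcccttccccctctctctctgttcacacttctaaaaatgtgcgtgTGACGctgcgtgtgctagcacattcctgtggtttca
Tph1, second window, chr7:46667378-46667477, minus strand: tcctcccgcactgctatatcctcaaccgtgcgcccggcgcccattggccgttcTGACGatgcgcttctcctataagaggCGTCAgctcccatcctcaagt
The 100 bases of Scg5 hold no TGACG, since its matches lie farther from the start or after it. The 8-base element began at position -72 in Chgb, -68 in Scg2 and -48 in Sst. Over the arrays these 3 genes had unlike values: Chgb was high on DOX+ arrays alone, Sst on arrays of both groups, and Scg2 was weak throughout.

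Each array held 59305 non-control spots, and none was saturated. Of these spots, 55.93% (DOX- replicate 3) to 61.9% (DOX+ replicate 2) were well above background. That is the scanner software's flag for a spot clearly brighter than its surroundings. The arrays were less alike in limma's array weights, which are lower for arrays that vary more. These ran from 0.39 (DOX- replicate 3) to 4.91 (DOX- replicate 2). Levels are given as processed intensity or as log2 levels, the log2 intensity minus the array's 75th percentile. Correlations over all tested genes, which are not independent replicates, were 0.971 to 0.98 among DOX+ arrays, 0.963 to 0.985 among DOX- arrays and 0.954 to 0.973 across the groups. The induced gene could not be checked: all 3 Fgf10 probes stayed below the background threshold on the 6 arrays (log2 levels -7.39 to -5.54), and no label says if they lie within the construct. Of 15 cholangiocyte markers 14 were well above background on all 6 arrays, with Krt19 at log2 levels of 6.91 to 7.89. Row 1 of the slide held DOX- replicate 1 beside the 3 DOX+ arrays, and row 2 held the other DOX- arrays. With 3 arrays per group an exact two-sided permutation test cannot give a p below 0.1, and every p here reflects only how these samples spread, which may be technical in part.

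Counted per array, 4, 8 and 8 of the 10 genes were well above background on DOX+ replicates 1, 2 and 3, and 3, 6 and 3 on DOX- replicates 1, 2 and 3. Syp and Cpe were above it on all 6 arrays, as 51.3% of all probes were, Neurod1 on none, as 34.1% of probes were, and the other 7 on some. None of the 10 passed limma's test after adjustment over all genes, where 0.0386% of tested genes (8) did. At an unadjusted p below 0.05 there were 2 (Tph1 and Scg5) of the 4 tested, against 13.3% of all tested genes. The mean of each of the 4 was higher in DOX+, as was that of 48.8% of all tested genes. Members that entered the test only because one group was bright had to differ, so this count is a description.

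**Figure D1:**
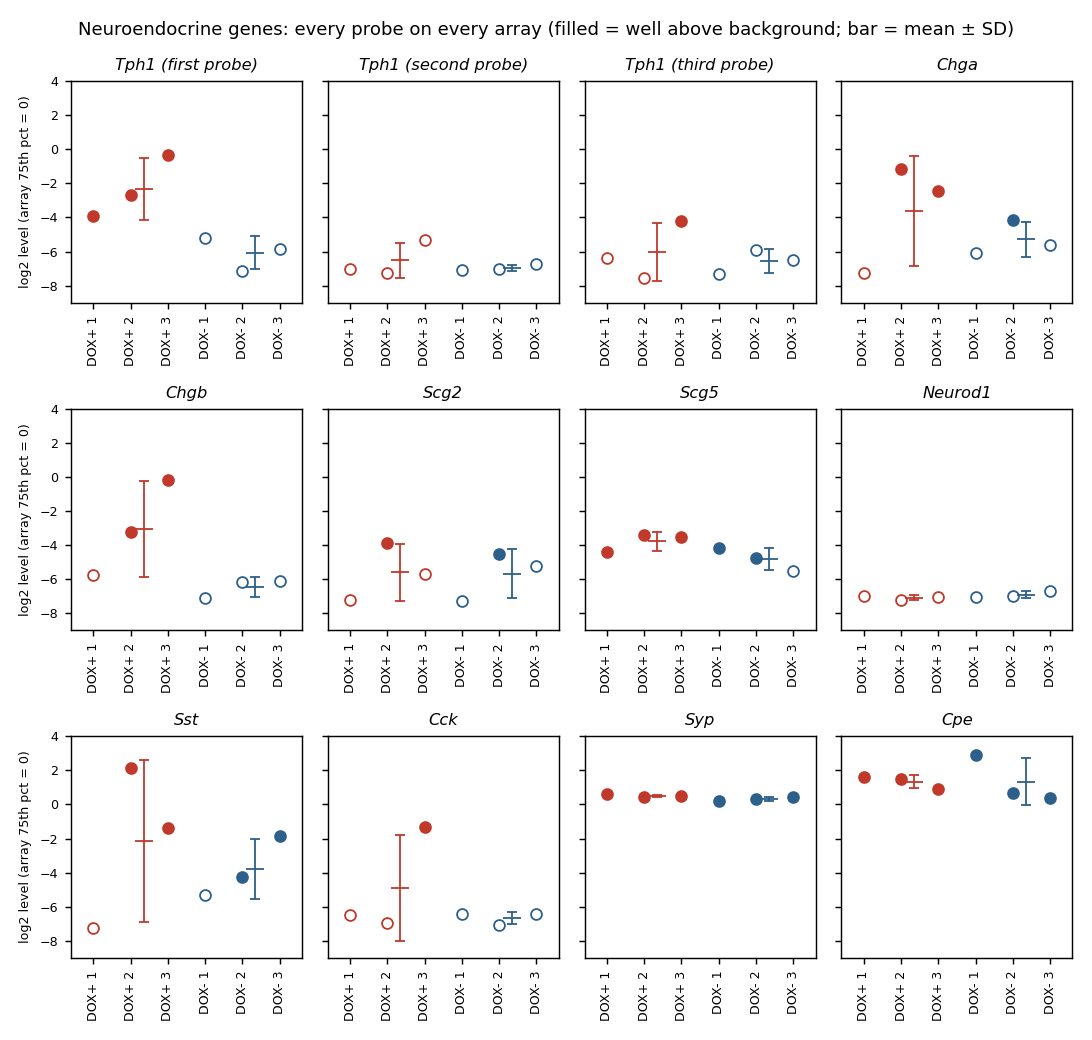
Log2 level (processed intensity, array 75th percentile = 0) of all 12 probes on the 3 DOX+ (red) and 3 DOX- (blue) arrays; filled points are well above background, open points are not, and bars are group mean ± SD. The first Tph1 probe is filled on the 3 DOX+ arrays and open on the 3 DOX- arrays; Syp and Cpe are filled throughout; Neurod1 is open throughout.

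Tph1, the rate-limiting enzyme of serotonin synthesis outside the brain, was detected on all DOX+ arrays and on no DOX- array. Its first probe (chr7:53902606-53902665, minus strand, mm9) had processed intensities of 46.7, 128.5 and 701.2 on DOX+ replicates 1, 2 and 3 and of 21.7, 6.37 and 11.3 on DOX- replicates 1, 2 and 3. Every DOX+ value lay above every DOX- value, while the DOX+ arrays themselves spanned 11.8-fold. Only 237 probes, 0.419% of all, were well above background on all DOX+ and no DOX- arrays. Mean log2 levels were -2.32 ± 1.81 (SD, n = 3) and -6.07 ± 0.96 (SD, n = 3), a difference of 3.75 (SE 0.95). Since DOX- was not above background, the fold was taken from the DOX+ mean against a limit. That limit was, per DOX- array, the higher of the probe's signal and the lowest signal well above background. With this scaling the DOX+ mean of Tph1 was 5.98-fold above the limit, an estimate that other processing changes. In limma's test the unadjusted p was 0.00715 and the adjusted p 0.234, and the exact permutation p was 0.1. Tph1 entered limma's test through DOX+ alone, which favoured this direction. When slide row was fitted as a block, so that only DOX- replicate 1 served as control, Tph1 differed by 2.91 (limma adjusted p 0.769), and with another background correction (normexp) it was 1.67 (limma adjusted p 0.328). In such bulk samples more cells of a type and more RNA per cell cannot be told apart.

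The other probes for Tph1 did not show this difference. They lie upstream within the gene, as the 2 sequences show with their mm9 positions, and are printed because they gave little or no signal where the first probe did.
Tph1 second probe, chr7:53912586-53912645, minus strand: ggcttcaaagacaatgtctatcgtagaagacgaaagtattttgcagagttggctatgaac
Tph1, the third probe, chr7:53917441-53917500, minus strand: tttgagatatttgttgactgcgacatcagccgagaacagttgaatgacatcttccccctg
The second probe was above background on none of the 6 arrays, with a log2 difference of 0.43 (exact permutation p = 0.8). The third probe was above it on DOX+ replicate 3 alone, the array on which the first probe was brightest, with a difference of 0.54 (exact permutation p = 0.8). The difference in Tph1 thus rests on 1 of its 3 probes.

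Further genes of serotonin synthesis and handling gave 14 of 16 tested. In DOX+ 9 of these were higher and 5 lower, and the median log2 difference was 0.20, beside -0.01 over all tested genes. Limma's adjusted test passed 0 of them. At an unadjusted p below 0.05 there were 2, against 13.3% of all tested genes. Slc6a4, the serotonin transporter that takes serotonin up into cells, had the largest difference of the list. Its log2 levels were -4.15, -4.03 and -2.68 in DOX+ and -5.27, -6.90 and -6.62 in DOX-, above background on all DOX+ and no DOX- arrays. As with Tph1, the groups did not overlap and DOX+ replicate 3 was the highest. Of the 14 tested, 2 were higher without overlap, against 10.4% of all tested genes. Slc6a4 differed by 2.65 (SE 0.56, limma unadjusted p 0.00303, adjusted p 0.196). Against the DOX- limit used for Tph1, its DOX+ mean was 2.44-fold higher. Slc6a4 entered the test through DOX+ alone, which favoured this direction. Ddc, which makes the second step of synthesis, was above background on all arrays, with a difference of 0.50 (limma adjusted p 0.515). The vesicular monoamine transporters that load serotonin into granules were also present on all arrays, Slc18a2 with a difference of 0.50 (limma adjusted p 0.508) and Slc18a1, the isoform of enterochromaffin cells, with -0.31 (limma adjusted p 0.729). Maoa, which breaks serotonin down, differed by 0.78 (limma adjusted p 0.32), and Slc7a5, a carrier of tryptophan and other large amino acids, by 0.52 (limma adjusted p 0.394). Tph2, the brain isoform of the hydroxylase, was above background on no array. Of 13 serotonin receptor genes, 10 were above background on no array and only Htr4 could be tested, with a difference of -0.92 (limma adjusted p 0.561).

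Mast cell markers were high on the same arrays as Tph1. All 15 listed markers were above background on some array, and 14 were tested: DOX+ was higher for 12 and lower for 2, and the median log2 difference was 2.18 (1.41 with the slide row as a block). For 10 of the 14 every DOX+ value lay above every DOX- value, against 10.4% of all tested genes. Of these 10, Tpsg1, Fcer1a and Ms4a2 entered the test through DOX+ alone. The list was also chosen with earlier results of these data known, so the count is a description. None of the 14 passed limma's adjusted test, and 10 had an unadjusted p below 0.05, against 13.3% of all tested genes. Their summed linear level, relative to the array's 75th percentile, was 10.6, 18.3 and 109 on DOX+ replicates 1, 2 and 3 and 8.1, 4.84 and 3.11 on DOX- replicates 1, 2 and 3, so the sum was highest on replicate 3. Most of that sum came from Mcpt1 and Mcpt4, at log2 levels of 5.43 and 5.55 there, and some markers differed in order, such as Gata2, which was highest on DOX+ replicate 2. Mcpt1, Ms4a2, Kit and Hdc are given in addition to the named-gene rule, chosen after their values were seen. Mcpt1, a protease of mucosal mast cells, had log2 levels of -0.71, 1.33 and 5.43 in DOX+ and -3.40, -2.85 and -4.42 in DOX- (difference 5.57, SE 1.5; limma adjusted p 0.245). Ms4a2, a chain of the high-affinity IgE receptor, had -4.18, -2.66 and -0.39 in DOX+ and -4.47, -7.32 and -7.03 in DOX- (difference 3.87; limma adjusted p 0.279). The mast cell genes with the smallest p were the tryptase Tpsb2 (difference 2.18; limma adjusted p 0.176), Gata2 (1.35; limma adjusted p 0.194), Fcer1a (3.41; limma adjusted p 0.22) and Il1rl1 (2.40; limma adjusted p 0.22). Kit and Hdc, the gene of histamine synthesis, differed by 0.10 and -0.83, with overlapping groups. The part of mast cell RNA in the Tph1 and Slc6a4 values was not tested.

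**Figure D2:**
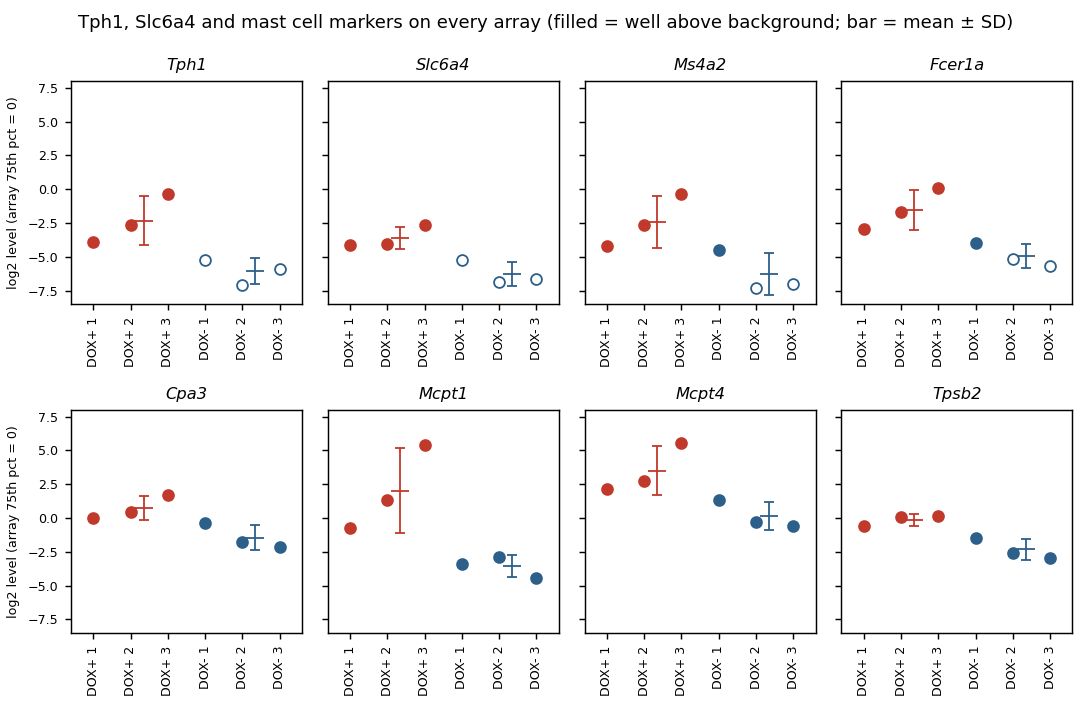
Log2 level of Tph1 (first probe), Slc6a4 and 6 mast cell markers, picked after their values were seen, on the DOX+ (red) and DOX- (blue) arrays; filled points are well above background, bars are mean ± SD. For these 8 genes each DOX+ point lies above each DOX- point, and the highest point is DOX+ replicate 3. Not shown are Kit, Hdc, Hpgds, Mcpt2 and Tpsab1, whose groups overlap, and Gata2, which is highest on DOX+ replicate 2. Cma1, Tpsg1 and Il1rl1, whose groups do not overlap, are not shown either.

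Likeness to Tph1 over the 6 arrays was ranked by Pearson's r among 20736 genes, as a description. The highest were Slc19a1 (r = 0.991), Tatdn1 (0.990), Ell (0.990), Rabac1 (0.990) and Cfap20dc (0.988). These genes differed little between groups, from 0.14 for Ell to 0.82 for Cfap20dc on the log2 scale, none with a limma adjusted p below 0.293. Among the listed genes, Ms4a2 ranked 21 (r = 0.97), Mcpt4 30, Fcer1a 31 and Slc6a4 37, while the mast cell markers Kit ranked 4793 (r = 0.45), Hpgds 6614 (r = 0.29) and Hdc 13894 (r = -0.33). Tph1 was not above background on the 3 DOX- arrays, which limits what these ranks carry.

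Granin genes were compared next, to ask whether Tph1 moves with them. Chgb (chromogranin B; chr2:132620703-132620762, mm9) came closest. Its intensities were 13.9, 86.8 and 801.3 on DOX+ replicates 1, 2 and 3 and 5.89, 14.6 and 11.4 on DOX- replicates 1, 2 and 3. After scaling, the groups did not overlap, but DOX+ replicate 1 was not above background and lay near the DOX- arrays, and the DOX+ arrays spanned 48.9-fold. The log2 difference was 3.38 (exact permutation p = 0.1), and 1.47 with normexp. Against the DOX- limit used for Tph1, the DOX+ mean of Chgb was 3.56-fold higher. That mean includes DOX+ replicate 1, which was not above background, so the fold is no strict bound. Chgb missed the filter, and fitted without one its limma adjusted p was 0.557. Without DOX+ replicate 3 the difference was 1.93. Chgb was above background on 2 DOX+ arrays and no DOX- array, a pattern that 1.42% of all probes (802, counting 2 or 3 DOX+ arrays) met.

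Chga (chromogranin A, the usual histological marker of these cells; chr12:103803083-103803142, mm9) had intensities of 4.56, 366.2 and 164.3 in DOX+ and 11.8, 50.5 and 13.7 in DOX-. It was above background on DOX+ replicates 2 and 3 and on DOX- replicate 2. DOX+ replicate 1 was the lowest of all 6, so the groups overlapped (difference 1.64, exact permutation p = 0.5). Scg2 (secretogranin II; chr1:79431323-79431382, mm9) had log2 levels of -7.23, -3.87 and -5.70 in DOX+ and -7.29, -4.53 and -5.20 in DOX-. Replicate 2 was the highest in both groups and the only one above background, and the difference was 0.07 (exact permutation p = 0.9). With the slide row as a block it was 1.69.

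Scg5 (the chaperone 7B2 of prohormone convertase 2; chr2:113616781-113616840, mm9) had intensities of 33.4, 78.2 and 79.3 in DOX+ and 45.3, 32.8 and 14.7 in DOX-. Replicate 1 of DOX- lay above replicate 1 of DOX+, so the groups overlapped. Scg5 entered limma's test through DOX+ alone, which favoured a higher DOX+ mean. The log2 difference was 1.03 (SE 0.41; limma unadjusted p 0.0453, adjusted p 0.367; exact permutation p = 0.2). With the slide row as a block it was 0.40 (limma adjusted p 0.929).

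Of the 4 granins Chgb had the highest correlation with Tph1 across the 6 arrays, Pearson's r = 0.90 (exact permutation p = 0.0153, adjusted over the 4 granins 0.0612) and Spearman's rho = 0.83 (exact permutation p = 0.0583, adjusted 0.117). Without DOX+ replicate 3 and DOX- replicate 2, the 2 arrays farthest from the Tph1 median, r was 0.85, and for deviations from the group means it was 0.79. For Scg5, r was 0.79 (exact permutation p = 0.0653, adjusted 0.131) and rho 0.83 (exact permutation p = 0.0583, adjusted 0.117). Leaving out the same arrays gave 0.85, and within groups 0.49. For Chga, r was 0.52 (exact permutation p = 0.3, adjusted 0.4), rho 0.37 (exact permutation p = 0.497, adjusted 0.663), and 0.64 without those arrays. For Scg2, r was -0.01 (exact permutation p = 0.982, adjusted 0.982), rho -0.09 (exact permutation p = 0.919, adjusted 0.919), and 0.42 without them. None of the 4 passed 0.05 after adjustment. The permutations treated all 6 arrays alike. Tph1 and Chgb both separated the groups, so their r over 6 arrays includes the group difference. The r within groups was not tested. The DOX- values of Tph1 and Chgb were not above background, so the relation over those arrays carries little.

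Whether the group difference of Tph1 is larger than that of a granin was tested on the within-array log2 ratio. Tph1 on the DOX- arrays, and most values of Chga, Chgb and Scg2, were not above background, so these gaps depend on signal at the floor and do not rank Tph1 against the granins. The Tph1 difference minus that of Scg2 was 3.68 ± 1.80 (SE; exact permutation p = 0.2), minus that of Scg5 2.72 ± 1.03 (SE; exact permutation p = 0.1), minus that of Chga 2.11 ± 1.85 (SE; exact permutation p = 0.4) and minus that of Chgb 0.37 ± 1.02 (SE; exact permutation p = 0.8). Adjusted over the 4 comparisons these exact permutation p-values were 0.4, 0.4, 0.533 and 0.8. No difference between Tph1 and a granin passed the threshold, which this design cannot reach. When slide row was blocked, the gaps were 1.22 for Scg2, 2.51 for Scg5, 0.44 for Chga and -1.14 for Chgb.

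**Figure D3:**
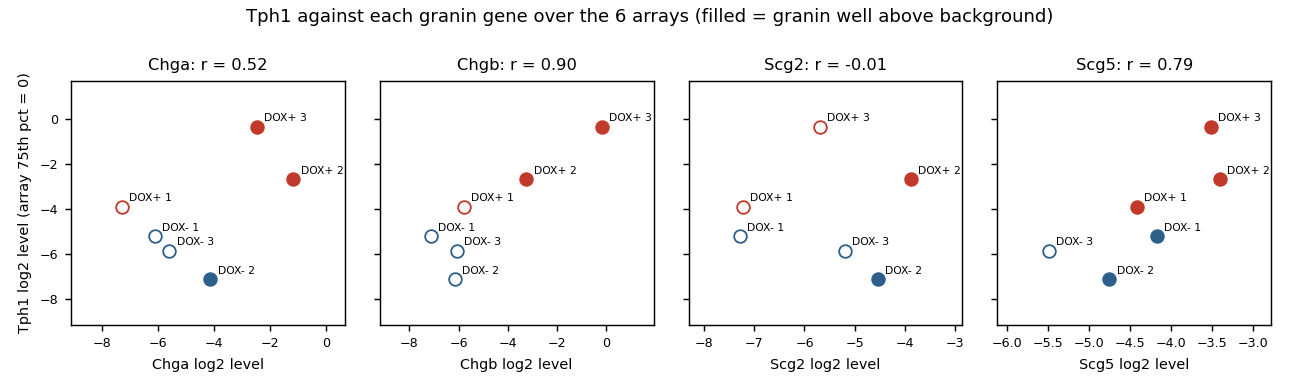
Log2 level of Tph1 (first probe, vertical) against each granin gene (horizontal) on the 6 arrays, DOX+ red and DOX- blue, with filled points where the granin was well above background. Chgb orders the DOX+ arrays as Tph1 does (r = 0.90), while for Chga and Scg2 DOX- replicate 2, the lowest in Tph1, is among the higher arrays (r = 0.52 and -0.01).

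Of 18 other granule and processing genes, 9 were above background on all 6 arrays and 12 were tested. DOX+ was higher for 6 and lower for 6, the median log2 difference was 0.09, and 0 were past limma's adjusted test. At an unadjusted p below 0.05 there were 2, against 13.3% of all tested genes. Cpe (carboxypeptidase E, which trims the cut peptides; chr8:67071401-67071460, mm9) had intensities of 2148, 2330 and 1705 in DOX+ and 6129, 1387 and 876.6 in DOX-. DOX- replicate 1 was the highest of all and the other DOX- arrays the lowest, so the mean difference was 0.02 (SE 0.67; limma adjusted p 0.994). Its sign changed with several settings and was -1.57 with the slide row as a block. Pcsk1n, an inhibitor of prohormone convertase 1, differed by 0.40 with groups that did not overlap (limma adjusted p 0.364), Pam, which amidates peptides, by 0.71 (limma adjusted p 0.372), and Cadps, a priming factor of granule release, by 1.94 (limma adjusted p 0.434). Rab27b differed by -0.41 (limma adjusted p 0.436). The groups did not overlap for Cadps and Rab27b either. For Cadps they all but touched, at -4.28 on DOX+ replicate 2 and -4.29 on DOX- replicate 3. DOX+ replicate 3 stood apart at -0.65, and the DOX+ arrays spanned 12.4-fold. Cadps entered the test through DOX+ alone, which favoured this direction. Of the 12 tested, 2 were higher and 1 lower without overlap, against 10.4% and 10.6% of all tested genes. The convertases Pcsk1 and Pcsk2 were above background on all arrays with differences of -0.33 and 0.67 (limma adjusted p 0.708 and 0.555). Scg3 was above background on 1 DOX+ array.

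The hormone genes differed widely among arrays of the same group. Sst (somatostatin; chr16:23889681-23889740, mm9) had intensities of 4.67, 3686 and 345.6 on DOX+ replicates 1, 2 and 3, a span of 678-fold, and of 21.1, 47.0 and 181.8 on DOX- replicates 1, 2 and 3. The highest and the lowest array were both DOX+ (log2 difference 1.63, exact permutation p = 0.6), and without DOX+ replicate 2 the difference was -0.52. Cck (cholecystokinin; chr9:121398943-121399002, mm9) was above background on DOX+ replicate 3 alone, at an intensity of 356.5, with the other 5 arrays between 6.64 and 11.4. Its log2 difference was 1.72 (exact permutation p = 0.6) and -0.07 without that array.

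Several other peptide hormone genes were high on single arrays. Of 17 listed, 5 were tested. DOX+ was higher for 3 and lower for 2, the median was 0.23, and 0 were past limma's adjusted test. At an unadjusted p below 0.05 there was 1, against 13.3% of all tested genes. That gene was Nts, neurotensin, which was lower in DOX+ at log2 levels of -4.59, -6.59 and -6.25 against -3.59, -3.92 and -3.16, with groups that did not overlap, as for 10.6% of all tested genes in this direction (difference -2.25, SE 0.54; limma adjusted p 0.218). Nts entered the test through DOX- alone, which favoured this direction. Nmb differed by 0.28 (limma adjusted p 0.405), Gcg by 0.23 (limma adjusted p 0.549) and Ghrl, the ghrelin gene, by 1.08 (limma adjusted p 0.802). Some further genes were chosen after their values were seen. Ghrl, at -4.51, 0.98 and -1.75 in DOX+ and -4.77, -3.01 and -0.75 in DOX-, ordered the arrays within each group as Sst did. Ppy, pancreatic polypeptide, was above background on DOX+ replicate 2 alone, at -0.29. Gip was above background on DOX+ replicate 3 alone, at -2.36, as was Cck. Pyy was high on DOX+ replicates 3 (0.21) and 2 (-1.67) and above background at -4.42 on DOX- replicate 1. Calca was above background on DOX+ replicates 2 and 3 alone. Other genes of the list were above background on DOX- arrays alone. These were Grp on replicates 2 (-3.77) and 3 (-3.31), Vip (-3.47) and Npy (-4.38) on replicate 2, and Calcb on replicate 1 (-4.16). The insulin genes Ins1 and Ins2 were above background on DOX+ replicates 2 and 3 and on no other array. Of 12 islet markers 6 were tested, 5 higher and 1 lower, with a median of 0.39. Their summed levels were 8.53, 9.48 and 7.36 in DOX+ and 6.83, 6.4 and 6 in DOX-. These sums leave out Ins1, Ins2 and Iapp, which missed the filter, and came mostly from Slc2a2, Mafa and Pdx1. They therefore do not follow the insulin genes over the arrays. The part of islet RNA in the hormone values was not tested.

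**Figure D4:**
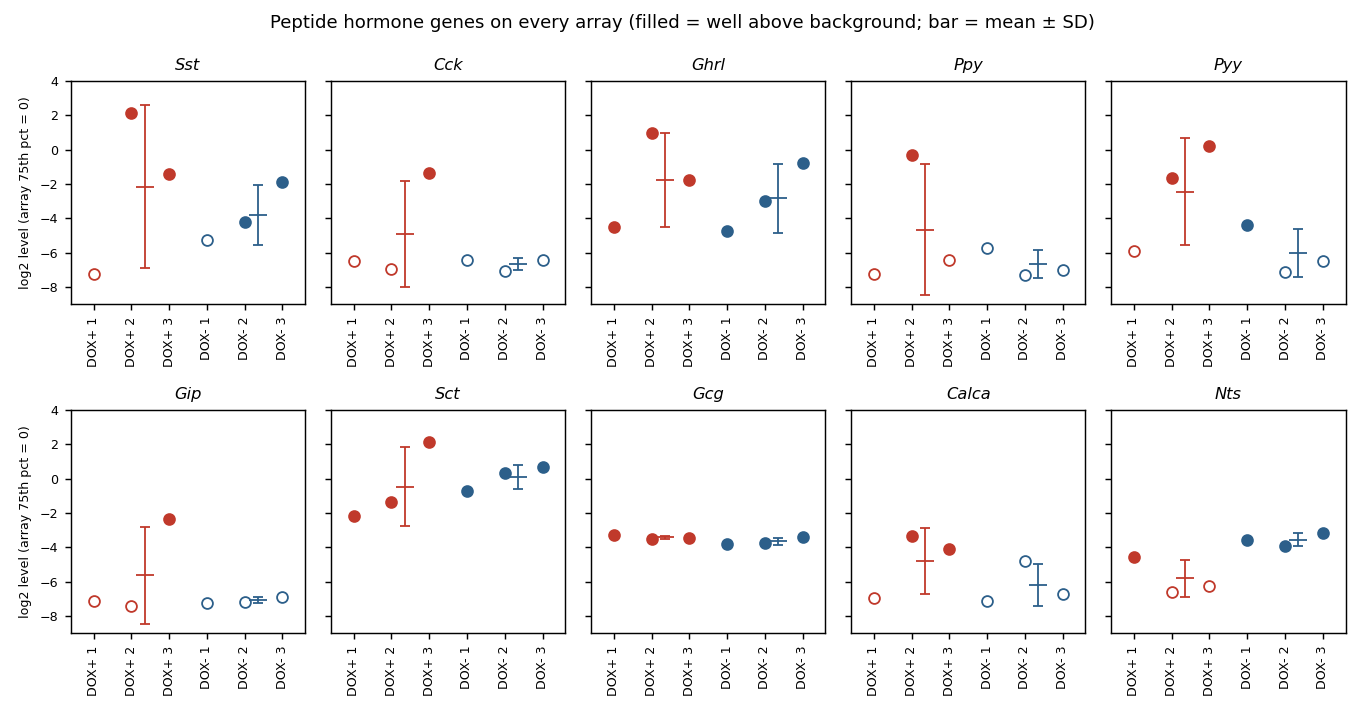
Log2 level of 10 peptide hormone genes on the DOX+ (red) and DOX- (blue) arrays; filled points are well above background, bars are mean ± SD. DOX+ replicate 2 is highest for Sst, Ghrl and Ppy, DOX+ replicate 3 for Cck, Gip, Pyy and Sct. Nts is lower on each DOX+ array than on each DOX- array. Not shown are Grp, Vip, Npy and Calcb, which were above background on DOX- arrays alone.

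Neurod1 (chr2:79292819-79292878, mm9), a transcription factor of endocrine differentiation, was above background on no array, with a log2 difference of -0.17 (exact permutation p = 0.4). The same held for 11 of 16 other endocrine transcription factors, among them Neurog3, the starter of the endocrine programme, and Insm1. Rfx3 and St18 were above background on all arrays, with differences of -0.15 and -0.72 (limma adjusted p 0.697 and 0.745). A probe that is not above background sets only a limit on the level and does not show that the gene was off.

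Syp (synaptophysin, a vesicle membrane protein used as a neuroendocrine marker; chrX:7230297-7230356, mm9) was the steadiest member. Its intensities were 1066, 1113 and 1256 in DOX+ and 952, 1093 and 881.5 in DOX-. After scaling each DOX+ level lay above each DOX- level, by a small margin (log2 difference 0.19, SE 0.12; limma adjusted p 0.538; exact permutation p = 0.1). Of 16 other synaptic vesicle and exocytosis genes 10 were tested; DOX+ was higher for 9 and lower for 1, and the median was 0.28. None passed limma's adjusted test, and 4 had an unadjusted p below 0.05, each with groups that did not overlap, against 13.3% and, for genes higher in DOX+, 10.4% of all tested genes. These were Rab3a (difference 0.69; limma adjusted p 0.235), Unc13a (0.40; limma adjusted p 0.306), Vamp2 (0.35; limma adjusted p 0.349) and Nrxn3 (0.51; limma adjusted p 0.374). Of the neuron markers 9 of 19 were tested, 4 higher and 5 lower, with a median of -0.22 and summed levels of 1.57 to 2.95 in DOX+ and 2.05 to 3.56 in DOX-. Among the 6 tested of 9 Schwann cell and glia markers, DOX+ was higher for 2 and lower for 4 (median -0.05).

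**Figure D5:**
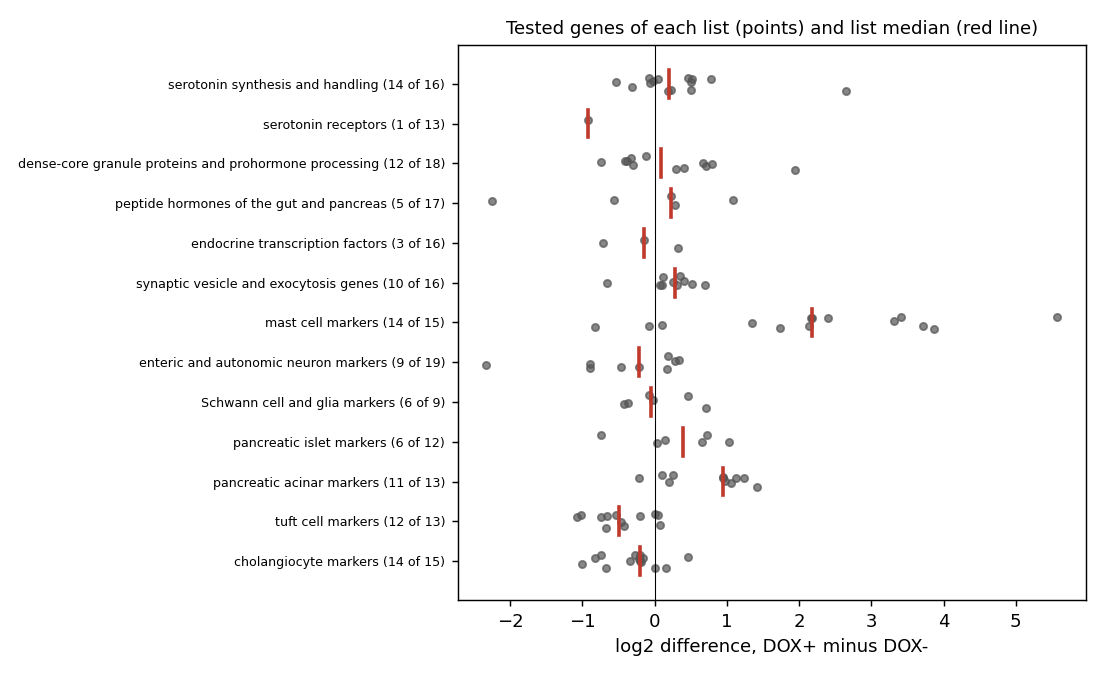
Log2 difference (DOX+ minus DOX-) of each tested gene (points) of the 13 lists of related genes and cell type markers, with the median in red; the label gives tested genes of listed genes. The mast cell markers have the median farthest from 0 (2.18). The serotonin synthesis and handling, granule, hormone and synaptic lists lie at medians of 0.20, 0.09, 0.23 and 0.28. The serotonin receptor list lies at -0.92, from 1 tested gene.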

How the data were processed

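The arrays (Agilent, 60-base probes, Cy3 label) measured total RNA of bile duct epithelium. Spot intensity was deposited by the authors; the file headers name version 10.7.1.1 of Agilent Feature Extraction, and the submitters' processing notes name 9.5.1.1. The deposited processed intensity was background-subtracted on each array, per the file headers; the deposited flags (0 or 1, another kind of value) mark spots well above background. The authors' table of processed intensity was used as an alternative. From these files, log2 processed intensity was scaled to each array's 75th percentile and averaged over the spots of a probe. A probe entered if every array of 1 group or both showed it well above background (31720 of 56605). The brightest probe represented a gene. The group test was limma 3.58.1 under R 4.3.3 (two-sided, Benjamini-Hochberg over 20737 genes, threshold 0.05), checked on simulated data. Single values were tested by exact two-sided permutation in Python 3.11.15. The number of arrays limits precision: the median SE of a difference was 0.185. Probe positions are the files' (mm9); names came by accession for 32994 probes, by symbol for 10224, by older symbol for 520 and from the file for 12867. Exons and UTRs were not assigned, since no mm9 annotation was used here.

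All 10 members were named whatever their values. Of each list, genes past the test and then those with the smallest limma p were named, up to 4, with the direct partners of members; 5 genes were named for likeness to Tph1. Members and lists were chosen with earlier results of these data known. Alternatives covered background correction, scaling, the filter, probes per gene, array weights, the slide row, the replicate number and leaving out each array. A result among the transcription factors is not reported here.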

Additional observations from a re-analysis of the deposited data

How the results depend on the processing

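Signal limits these results: 6 members were not above background on all arrays of either group and had no limma test, and with probes above background on all 6 arrays Tph1 and Scg5 had none either. None of the members passed limma's adjusted test under any alternative, and the adjusted p of Tph1 ranged from 0.0588 (array weights) to 0.769 (slide row as a block), with differences of 1.67 to 4.55. The number of genes past limma's adjusted test was 8; it was 2 with quantile normalization and with the authors' values, 5 with median centring and with probes above background on all 6 arrays, 1 without a filter, 19 for single probes, 383 with array weights, and 0 to 30 when 1 array was left out (0 without DOX- replicate 2, where 1547 genes had an unadjusted p below 0.05, and 30 without DOX+ replicate 1). Replicate numbers did not pair the arrays: deviations of same-numbered arrays correlated at -0.0867, -0.131 and -0.0201. With the replicate block limma called 0 genes (2255 at an unadjusted p below 0.05), and with the slide row block 0 (1418). The Cpe difference was -0.01 with normexp, -0.09 with median centring, -1.57 with the slide row, and -0.44 to 0.81 without 1 array. The gap between Tph1 and Chgb was -1.14 with the slide row and -0.30 to 1.13 without 1 array. In the same order, the gap to Chga was 0.44 and 1.01 to 3.52, and that to Scg2 was 1.22 and 2.59 to 4.91. The gap to Scg5 moved less, at 2.51 and 1.87 to 3.2. The correlation of Tph1 with Chgb, rerun under settings chosen after seeing the data, was 0.97 with normexp (exact permutation, adjusted p 0.0333) and 0.90 under the other 3 (adjusted p 0.0556). The cause of these shifts was not tested. Without 1 array, Chga differed by 0.41 to 3.46, Sst by -0.52 to 4.18 and Scg2 by -0.79 to 0.89; with the slide row these were 2.47, 3.12 and 1.69. Leaving out 1 array turned the sign of list medians for peptide hormones (-0.42 to 0.28), neuron markers (-0.41 to 0.17) and Schwann cell and glia markers (-0.23 to 0.12). The same held for tuft cell markers (-1.23 to 0.17) and acinar markers (-1.12 to 2.53). The receptor median ranged from -1.47 to 0.32, but it was that of Htr4 alone except without DOX+ replicate 3. That setting gave 0.32 from 2 tested genes, so it shows no change of sign for Htr4. The filter was applied again each time, so the tested genes of other lists could change too. With the slide row the islet median was 0.06.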

Other observations

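Tuft cell markers, of another rare epithelial cell type that senses luminal contents, varied over the DOX+ arrays as well. Of 13 markers 12 were tested; DOX+ was higher for 3 and lower for 9, the median log2 difference was -0.50 (-1.23 to 0.17 without 1 array), and limma's adjusted test called 0 (0 at an unadjusted p below 0.05). Their summed level, relative to the array's 75th percentile, was 15, 35.6 and 73.6 on DOX+ replicates 1, 2 and 3 and 33.6, 54.3 and 55.3 on DOX- replicates 1, 2 and 3. DOX+ replicates 1 and 3 were the lowest and the highest of all 6 arrays. Avil, an actin regulator of tuft cells, had log2 levels of 0.90, 2.81 and 4.0 in DOX+ and 2.53, 3.53 and 3.63 in DOX-.

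Pancreatic acinar genes, which mark digestive enzyme cells next to the duct, separated single arrays rather than groups. Their summed level reached 189 in DOX+ and was 60.5, 108 and 297 in DOX-, which held both the lowest and the highest array. Of 11 tested, DOX+ was higher for 10 and lower for 1, the median was 0.94 (-1.12 without DOX- replicate 1, 2.53 without DOX- replicate 3, and 5.24 when slide row was blocked), and limma's adjusted test called 0 (0 at an unadjusted p below 0.05). Amy2a5, the pancreatic amylase gene, had log2 levels of 4.64, 2.23 and 2.91 in DOX+ and -2.31, 3.41 and 5.86 in DOX-. Of 14 tested cholangiocyte markers DOX+ was lower for 11 and higher for 3, the median was -0.21, and limma's adjusted test called 0. At an unadjusted p below 0.05 there were 3, against 13.3% of all tested genes. Among them Krt7, a duct keratin, differed by -1.01 (limma adjusted p 0.171), with groups that did not overlap. Of the 14, 5 were lower and 0 higher without overlap, against 10.6% and 10.4% of all tested genes. Avil, Amy2a5 and Krt7 were chosen after their values were seen.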
